A study of Mus musculus with 6 samples.

Results

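Smooth muscle cells contract by sliding actin filaments against smooth muscle myosin, and the genes for this apparatus form a set that is switched on together when mural cells mature. The set examined here holds 32 genes, fixed by name, out of 24749 in the deposited table, and each was matched to 1 Ensembl identifier through its symbol. By their known expression the genes were divided into 12 muscle-restricted genes (Acta2, Tagln, Myh11, Cnn1, Smtn, Lmod1, Actg2, Myocd, Synpo2, Des, Pdlim3, Ldb3), 8 that muscle expresses strongly but not alone (Myl9, Mylk, Tpm1, Tpm2, Cald1, Csrp1, Csrp2, Pdlim7; called muscle-enriched), and 12 broadly expressed cytoskeletal genes (Cnn2, Myl6, Tpm4, Srf, Vcl, Flna, Actn1, Zyx, Tln1, Myh9, Myh10, Actb). Many of them are known targets of serum response factor (SRF), a transcription factor that binds the CArG box and works with myocardin in muscle and with the myocardin-related factors Mrtfa and Mrtfb in most cells. The myocardin-related factors are held inactive by free actin monomers. YAP and TAZ, which bind DNA through TEAD factors, also respond to the state of the actin cytoskeleton.

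Whole dissected mouse kidneys were sequenced at E15.5, in mid-gestation, as 2 groups of 3 libraries. The first group carried Foxd1cre with floxed Yap and Taz alleles (genotype Foxd1cre; Yapc/c;Tazc/c, called knockout here), and the second was wild type, given as Cre negative. All 6 were of mixed strain. The labels do not say whether the Cre-negative kidneys carried floxed alleles, or whether the ureter was removed at dissection. Cre acts in the Foxd1 lineage, the stromal progenitors that give rise to renal fibroblasts, pericytes and vascular smooth muscle, while the smooth muscle of the ureter descends mostly from other mesenchyme, marked by Tbx18. The RNA came from whole kidneys, so fewer cells of a type and less RNA per cell cannot be told apart. Nothing in the labels ties each library to its own embryo, so p-values measure only the spread between these libraries.

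Levels are in FPKM, fragments scaled by transcript length and by library size, so that genes can be compared per length. An estimate from the lowest values put the libraries at 12700000 to 15500000 fragments each. Markers of nephron progenitors, nephrons and the ureteric bud were present, with Calb1, Wt1 and Pax8 between 34.9 and 83.3 FPKM in all 6 libraries. Of the targeted genes, Wwtr1, which encodes TAZ, measured 20.2, 17.7 and 18.5 FPKM in wild-type libraries and 13.5, 12.8 and 12.2 FPKM in knockout libraries, without overlap (log2 -0.51, limma adjusted p = 0.0235; called in 7 of 13 alternative fits). Yap1 measured 45.5, 52.7 and 55.0 FPKM against 48.7, 43.2 and 44.2 FPKM, with overlapping groups, and was not called (log2 -0.16, limma adjusted p = 0.378). The labels do not name the floxed exons, and cells outside the Foxd1 lineage keep both genes, so these whole-gene levels are a limited check of the genotype. One library stood apart: 32 skeletal muscle markers summed to 229 FPKM in wild-type library 3 and to between 56.9 and 75.1 FPKM in the other 5 libraries. That library was the highest of the 6 for 25 of the 32 markers, for 8 of 12 cardiac muscle markers (1 of which, Nkx2-5, is listed at 0 throughout), for 12 of the 32 genes described here and for 15.1% of all genes tested. Among the 30 genes tested, log2 changes that turned in direction or moved by over 1.5 times when it was left out, and calls that were lost, are given with and without it.

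Promoters are shown for 4 genes to illustrate where SRF or TEAD motifs lie close to a start site: Myl9, Cnn2 and Cald1, which were lower in knockout kidneys, and Srf, which was not called. The sequences are from RefSeq (GRCm38.p6), read 5′ to 3′ on the strand of the gene, and hold the bases before the RefSeq start that lie in no GENCODE M21 exon. Capitals mark a CArG box in Myl9, Cnn2 and Srf and the TEAD motif GGAATG in Cald1.
Myl9, chr2:156775214-156775419, + strand: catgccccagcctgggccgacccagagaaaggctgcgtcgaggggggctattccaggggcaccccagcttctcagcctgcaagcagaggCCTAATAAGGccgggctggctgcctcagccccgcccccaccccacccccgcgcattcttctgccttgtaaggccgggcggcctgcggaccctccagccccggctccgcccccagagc
Cnn2, chr10:79988350-79988583, + strand: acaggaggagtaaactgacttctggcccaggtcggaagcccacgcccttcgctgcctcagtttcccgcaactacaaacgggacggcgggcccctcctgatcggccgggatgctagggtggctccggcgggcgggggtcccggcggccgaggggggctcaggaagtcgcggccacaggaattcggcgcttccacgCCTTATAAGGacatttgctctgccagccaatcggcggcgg
Srf, chr17:46556176-46556412, - strand: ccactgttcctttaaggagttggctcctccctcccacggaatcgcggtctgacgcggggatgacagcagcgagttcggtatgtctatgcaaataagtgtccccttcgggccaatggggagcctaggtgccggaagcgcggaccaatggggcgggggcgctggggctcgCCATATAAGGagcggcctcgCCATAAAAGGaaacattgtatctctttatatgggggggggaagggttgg
Cald1, chr6:34598254-34598499, + strand: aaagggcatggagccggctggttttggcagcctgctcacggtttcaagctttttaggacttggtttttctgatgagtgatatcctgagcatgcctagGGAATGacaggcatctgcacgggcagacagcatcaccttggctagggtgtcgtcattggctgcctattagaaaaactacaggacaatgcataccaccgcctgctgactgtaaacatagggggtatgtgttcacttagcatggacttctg
The CArG box of Myl9 lies at -161 to -152 from the RefSeq start and that of Cnn2 at -56 to -47. Srf, whose product binds the CArG box, has a pair of them, at -82 to -73 and at -62 to -53. The GGAATG of Cald1 lies at -153 to -148. Cald1 has a second RefSeq start, and the window around it (chr6:34709194-34709493) held neither motif.

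Both motifs were searched on both strands in windows of 300 bases, 250 before the start and 50 after it, the CArG box without mismatches and the TEAD motif as GGAATG. RefSeq windows were matched for 26 of the 32 genes, 30 windows in all, and the genes with no entry are Actb, Actg2, Csrp2, Myh11, Myocd and Tagln. A CArG box was found in 7 of the 30 windows (23.3%), against 1.63% of all 32851 windows in the table. Of the 7, 2 are overlapping windows of Ldb3 that hold the same box, so that it is counted more than once. They belong to 6 genes, Cnn2, Ldb3, Myl6, Myl9, Srf and Vcl. GGAATG was found in 10 of the 30 windows (33.3%), against 14.7% of all windows, and these belong to Acta2, Cald1, Flna, Lmod1, Myh10, Mylk, Pdlim3, Smtn, Tpm1 and Vcl. Vcl was the one gene with both, at separate positions. The GGAATG of Acta2 and Tpm1, 1 of the 2 in Pdlim3 and the CArG box of Myl6 lie in exons of GENCODE, and the GGAATG of Myh10, Mylk, Smtn and Flna lie in introns. A match is a run of letters and not a measured binding site. Many of the 32 genes were listed as known SRF targets, so a high share of CArG boxes was likely from the choice of genes. The motifs were chosen after the values were seen.

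Of the 32 genes, 30 had a mean of at least 0.5 FPKM and were tested. Knockout kidneys had lower levels of 6 of the 30 by limma (adjusted p under 0.05), namely Myl9, Acta2, Tagln, Cald1, Cnn2 and Myh10. Across all 16899 genes tested 0.604% were called lower. None of the 30 was called higher by limma, where 0.13% of all genes tested were. At an unadjusted p under 0.05, 14 of the 30 were lower, against 6.94% of all genes tested, and 2 (Pdlim3 and Actn1) were higher, against 9.14%. The log2 changes had a median of -0.20 over the 30 genes and of -0.002 over all genes tested. The knockout range lay wholly under the wild-type range for 15 of the 30 genes, against 11.8% of all genes tested, and wholly over it for 0 of the 30, against 12.5%. The 32 genes were chosen with earlier results of these data known, so these shares are descriptions and not a test of the set.

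**Figure D1:**
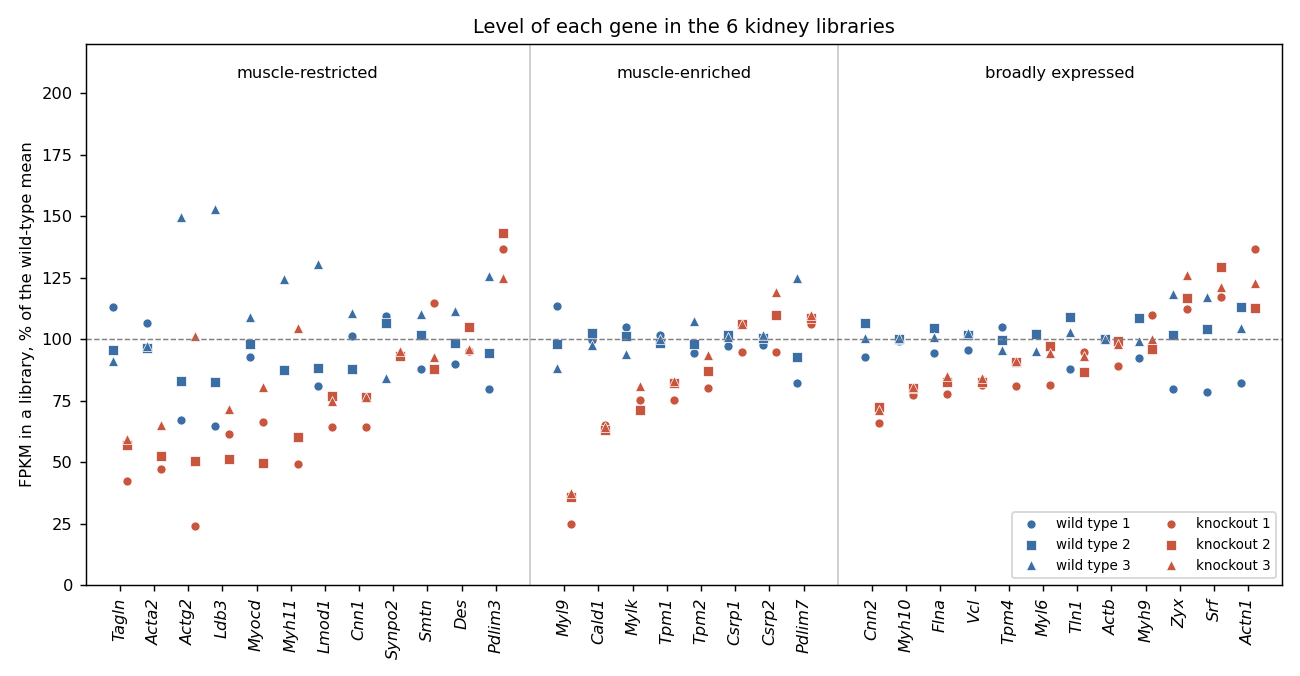
FPKM of each of the 32 genes in each library, as a percentage of that gene's wild-type mean (blue, wild type; red, knockout; circle, square and triangle are replicates 1, 2 and 3). Knockout points lie lowest for Myl9, at 32.8% of wild type on average, while genes such as Smtn and Des scatter around 100%, and the blue triangle of wild-type library 3 stands high for Actg2 and Ldb3.

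The called genes came from each class. They were 2 of the 10 tested muscle-restricted genes (Acta2, Tagln), 2 of the 8 muscle-enriched genes (Myl9, Cald1) and 2 of the 12 broadly expressed genes (Cnn2, Myh10). The median log2 change was -0.30 in the muscle-restricted class, -0.26 in the muscle-enriched class and -0.13 in the broadly expressed class. Within each class the log2 changes spread widely, from -0.86 to 0.35, from -1.60 to 0.13 and from -0.51 to 0.31. The medians are descriptions, and the difference between classes was not tested. Without wild-type library 3 they were -0.25, -0.23 and -0.13.

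**Figure D2:**
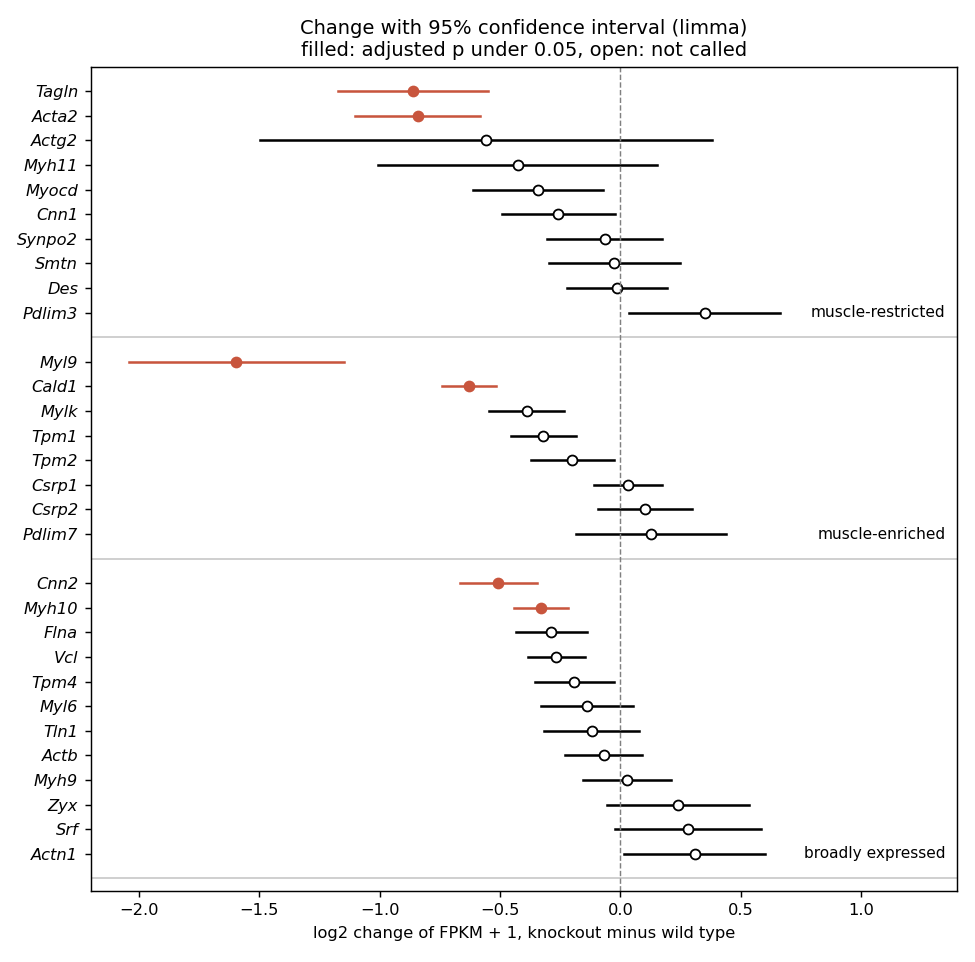
Log2 change of FPKM + 1 (knockout minus wild type) with its 95% confidence interval from limma for the 30 tested genes, ordered within each class. Filled red points mark the 6 genes called lower, which are spread over all 3 classes, and the interval of Actg2 (-1.50 to 0.38) is far wider than that of Cald1 (-0.74 to -0.52).

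The regulatory and structural proteins of contraction held the largest decrease. Myl9 (chromosome 2, 156775420 to 156781658), the regulatory light chain whose phosphorylation starts smooth muscle contraction, measured 116, 99.9 and 90.0 FPKM in the wild-type libraries and 25.3, 36.5 and 38.3 FPKM in the knockout libraries. The highest knockout library was thus far below the lowest wild-type library, and the mean fell to 32.8% of wild type (102 ± 12.9 against 33.4 ± 7.08 FPKM, SD, n = 3 each; log2 -1.60, SE 0.18, limma adjusted p = 0.0302). Mylk, which encodes the kinase that phosphorylates this light chain, measured 49.2, 47.4 and 44.0 FPKM against 35.3, 33.4 and 37.9 FPKM. The groups did not overlap, but Mylk missed the threshold (log2 -0.39, adjusted p = 0.0551). It was called with a pseudocount of 0.1 (adjusted p = 0.0485) or a minimum mean of 1 FPKM (adjusted p = 0.0477). Myl6, the essential light chain, lay between 525 and 661 FPKM, with overlapping groups (log2 -0.14, adjusted p = 0.441).

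Of the 3 myosin heavy chains 1 was called. Myh11, the smooth muscle heavy chain, measured 4.55, 4.52 and 6.45 FPKM in wild-type libraries and 2.55, 3.13 and 5.41 FPKM in knockout libraries. Knockout library 3 exceeded 2 of the 3 wild-type libraries, and the change was not called (log2 -0.43, 95% confidence interval -1.01 to 0.15; log2 -0.28 without wild-type library 3). Of the non-muscle heavy chains, Myh10 (chromosome 11, 68691559 to 68816632) measured 129.8, 130.9 and 131.5 FPKM in wild-type libraries and 101, 105 and 105 FPKM in knockout libraries, a decrease with little spread within groups (log2 -0.33, SE 0.05, adjusted p = 0.0319). Myh9, encoding the other main non-muscle heavy chain, measured 95.2, 112 and 103 FPKM against 113, 99.1 and 103 FPKM, and its log2 change of 0.03 had an interval from -0.15 to 0.21.

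Among the actins, Acta2 (chromosome 19, 34241090 to 34255590), encoding smooth muscle α-actin, measured 37.4, 33.9 and 34.1 FPKM in wild-type libraries and 16.6, 18.5 and 22.9 FPKM in knockout libraries. All knockout libraries were well below all wild-type libraries, and the mean fell to 54.9% of wild type (log2 -0.84, SE 0.11, adjusted p = 0.023). Actg2, the enteric smooth muscle actin, had a coefficient of variation of 43.8% in wild-type and 66.7% in knockout libraries, where it was the most variable of the 32 genes. It measured 1.86, 2.31 and 4.16 FPKM in wild-type libraries and 0.671, 1.41 and 2.81 FPKM in knockout libraries, with a log2 change of -0.56 that was not called (95% confidence interval -1.50 to 0.38) and that moved to -0.31 without wild-type library 3. In both groups replicate 3 held the most Actg2 and the most Myh11. Actb, the cytoplasmic β-actin, lay between 1839 and 2073 FPKM (log2 -0.07, adjusted p = 0.654).

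Actin-binding proteins of the thin filament included 3 of the called genes. Tagln (chromosome 9, 45929619 to 45936058), encoding transgelin, measured 20.9, 17.7 and 16.8 FPKM in wild-type libraries and 7.82, 10.5 and 11.0 FPKM in knockout libraries, with no overlap (log2 -0.86, SE 0.13, adjusted p = 0.0402). Cald1 (chromosome 6, 34598500 to 34775473), encoding caldesmon, which restrains the myosin ATPase, measured 82.1, 84.4 and 80.3 FPKM against 53.7, 51.8 and 53.0 FPKM. It varied by only 2.52% and 1.79% of the mean within groups, and it fell to 64.2% of wild type (log2 -0.63, SE 0.05, adjusted p = 0.00219). Cnn2 (chromosome 10, 79988584 to 79996062), the broadly expressed calponin, measured 69.2, 79.5 and 74.9 FPKM against 49.1, 54.0 and 53.2 FPKM, again without overlap (log2 -0.51, SE 0.07, adjusted p = 0.0235). The smooth muscle calponin Cnn1 was scarce, at 1.49, 1.30 and 1.63 FPKM against 0.948, 1.13 and 1.13 FPKM. Its groups did not overlap either, but the test did not call it (log2 -0.26, adjusted p = 0.273).

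Tropomyosins lie along the actin filament and set which myosins reach it. Tpm1 measured 195, 188 and 192 FPKM in wild-type libraries and 145, 157 and 159 FPKM in knockout libraries, which the test did not call (log2 -0.32, adjusted p = 0.0656). It was called when libraries were rescaled to equal sums (adjusted p = 0.0161) or quantile normalized (adjusted p = 0.027). Tpm2 measured 38.2, 39.7 and 43.4 FPKM against 32.4, 35.2 and 37.8 FPKM. Tpm4 measured 338, 322 and 309 FPKM against 261, 293 and 294 FPKM. Neither was called, with log2 changes of -0.20 and -0.19, although their groups did not overlap.

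Several muscle-restricted genes showed no call and little difference in mean. Smtn, encoding the actin-binding smoothelin of contractile smooth muscle, measured 11.4, 13.2 and 14.3 FPKM against 14.9, 11.4 and 12.0 FPKM, and its log2 interval ran from -0.30 to 0.25. Des, encoding the intermediate filament desmin, measured 9.88, 10.8 and 12.3 FPKM against 10.5, 11.5 and 10.5 FPKM (interval -0.22 to 0.19). The sign of both mean differences was not stable, turning above 0 without wild-type library 3 (log2 0.044 and 0.061). Synpo2, encoding an actin-bundling protein of the Z-disc, measured 4.11, 4.01 and 3.16 FPKM against 3.51, 3.51 and 3.58 FPKM (log2 -0.07, interval -0.30 to 0.17; log2 -0.16 without wild-type library 3). In Synpo2 wild-type library 3 was the lowest of all 6.

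Pdlim3, encoding an actinin-associated LIM protein of muscle, was the muscle-restricted gene with a mean above wild type. It measured 2.39, 2.83 and 3.78 FPKM in wild-type libraries and 4.11, 4.30 and 3.75 FPKM in knockout libraries. The groups overlapped through wild-type library 3 (log2 0.35, limma adjusted p = 0.268). Without that library the log2 change was 0.48 (limma adjusted p = 0.0896). Without wild-type library 1, the lowest for this gene, it was 0.24 (limma adjusted p = 0.466). Lmod1, the smooth muscle leiomodin, which nucleates actin filaments, and Ldb3, a Z-disc protein, were below the minimum level and were not tested. Lmod1 measured 0.446, 0.488 and 0.720 FPKM against 0.353, 0.423 and 0.413 FPKM, which corresponds to about 20 to 38 fragments per library on its 3948-base transcript. Ldb3 measured 0.288, 0.368 and 0.683 FPKM against 0.274, 0.230 and 0.320 FPKM, and wild-type library 3 was the highest for both.

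The transcription factors of the set were not called. Myocd, encoding myocardin, measured 1.42, 1.50 and 1.67 FPKM in wild-type libraries and 1.02, 0.758 and 1.23 FPKM in knockout libraries. These groups did not overlap, with a log2 change of -0.34 on a scale that understates changes at such levels (-0.58 with a pseudocount of 0.1) and an adjusted p of 0.228. Srf, by contrast in sign, measured 6.73, 8.96 and 10.1 FPKM against 10.1, 11.1 and 10.4 FPKM (log2 0.28, adjusted p = 0.342). Its wild-type library 1 was the lowest of the 6, and without that library the log2 change was 0.13. The same library was also the lowest of the 6 for Actn1, Zyx, Myh9, Pdlim3, Pdlim7 and Des. Of these genes only Des had a log2 change below 0.

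Genes of adhesion sites and of the actin crosslinking network were not called. Vcl, encoding vinculin, measured 32.1, 34.2 and 34.4 FPKM in wild-type libraries and 27.3, 27.7 and 28.2 FPKM in knockout libraries. Flna, encoding filamin A, measured 202, 223 and 215 FPKM against 166, 177 and 181 FPKM. Both had groups without overlap and neither was called (log2 -0.27 and -0.29, adjusted p = 0.0786 and 0.11). Tln1, encoding talin, lay at 51.8 ± 5.69 against 47.5 ± 2.20 FPKM (SD, n = 3 each; log2 -0.12; -0.21 without wild-type library 1 and -0.05 without wild-type library 2). Actn1, encoding α-actinin 1, had a mean above wild type, with 21.0, 28.8 and 26.7 FPKM against 34.8, 28.7 and 31.3 FPKM (log2 0.31, adjusted p = 0.293; log2 0.18 without wild-type library 1), and so did the LIM protein gene Zyx, at 10.6 ± 2.05 against 12.6 ± 0.748 FPKM (log2 0.24; 0.10 without wild-type library 1 and 0.36 without wild-type library 3). Csrp1, Csrp2 and Pdlim7, which encode further LIM proteins, had log2 changes of 0.03, 0.10 and 0.13, and none was called. That of Pdlim7 was 0.008 without wild-type library 1 and 0.29 without wild-type library 3.

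Of the 6 called genes, Cald1 was called without any 1 library (adjusted p between 0.00635 and 0.0212). Acta2 was called in just 1 of the 6 fits that each leave out a library, the one without knockout library 3, and had an adjusted p of 0.0543 to 0.126 in the others. Myl9 was called in the fit without knockout library 1 (others 0.0554 to 0.139) and Cnn2 in the fit without wild-type library 1 (others 0.0533 to 0.106). Tagln (0.0603 to 0.15) and Myh10 (0.0609 to 0.15) were called in none of the 6. With all 6 libraries Tagln also lost its call when every gene was kept whatever its level (adjusted p = 0.0601), with quantile normalization (0.0546) and with no robust moderation (0.0759). Without wild-type library 3 the count of called genes among the 30 was 1 in place of 6, while over all genes tested it was 147 in place of 124, and the log2 changes of the 6 genes stayed between -1.68 and -0.33.

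Wild-type library 3 was the highest of the 6 for 7 of 12 muscle-restricted, 2 of 8 muscle-enriched and 3 of 12 broadly expressed genes. Against the mean of the other 2 wild-type libraries its log2 level was higher by 0.74 for Actg2, 0.48 for Pdlim7, 0.43 for Myh11, 0.40 for Pdlim3, 0.36 for Zyx and 0.34 for Ldb3 and Srf, and by at most 0.23 for the other genes. These 7 are 4 muscle-restricted genes, 1 muscle-enriched gene and 2 broadly expressed genes. It was not raised for 3 of the called genes, with differences of -0.06 for Acta2, -0.18 for Tagln and -0.25 for Myl9. For Cald1, Cnn2 and Myh10 the difference lay between -0.05 and 0.01. Many but not all skeletal muscle genes shared this excess, and this library was the highest for 25 of the 32 markers. Mylpf, a fast skeletal light chain, was at 30.3 FPKM in this library and between 1.51 and 6.46 FPKM in the other 5. Actc1, the cardiac actin that embryonic skeletal muscle also expresses, was at 21.8 against 1.82 to 4.54 FPKM. Actn2, the skeletal muscle marker of highest mean level, was not raised, at 11.2 against 8.96 to 11.9 FPKM. The part of skeletal muscle RNA in the levels of Des, Pdlim3 and Ldb3, which that tissue also expresses, was not tested.

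**Figure D3:**
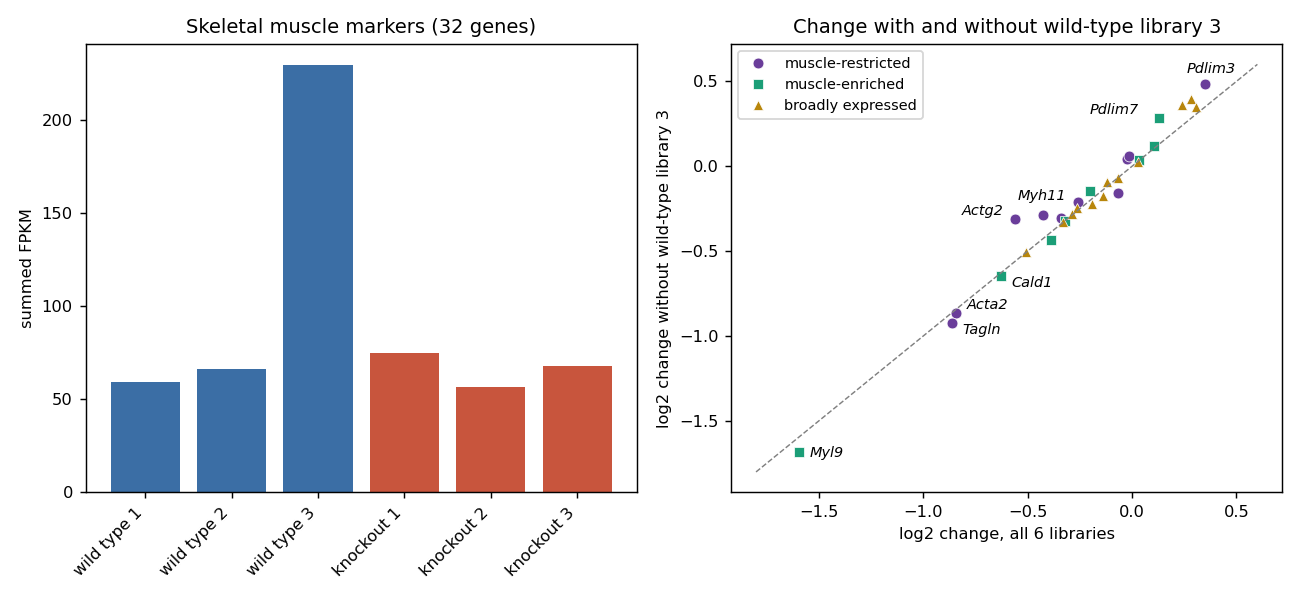
Left, summed FPKM of 32 skeletal muscle markers in each library (blue, wild type; red, knockout), with wild-type library 3 at 229. Right, log2 change of each of the 30 tested genes with all 6 libraries (horizontal) and without wild-type library 3 (vertical): Myl9, Acta2, Tagln and Cald1 lie close to the dashed line of equality, and Actg2 moves from -0.56 to -0.31.

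Shares within 5 families of related proteins were lower in knockout libraries for Myl9, Acta2, Myh10, Cnn2 and Tpm1. These families, and the gene followed in each, were chosen after the values were seen. Each of the 5 genes was itself lower without overlap, so lower shares were likely from the choice alone. The shares are descriptions with no test. Myl9 made up 26.9%, 26.5% and 25.1% of the summed FPKM of the regulatory light chains Myl9, Myl12a and Myl12b in wild-type libraries and 9.47%, 11.5% and 12.0% in knockout libraries. Myl12a and Myl12b, its non-muscle relatives, had log2 changes of -0.12 and -0.08 and were not called. Myh10 made up 55.9 ± 1.91% of the sum of Myh9 and Myh10 in wild-type and 49.7 ± 2.26% in knockout kidneys (SD, n = 3 each). The share of Cnn2 in the 3 calponins was 30.3 ± 1.99% against 25.0 ± 0.362%, and that of Tpm1 in the 4 tropomyosins was 26.8 ± 0.307% against 24.2 ± 0.172%. Acta2 was a small part of the 6 actins, at 1.17 ± 0.0982% against 0.663 ± 0.0935%. No share overlapped between the groups.

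**Figure D4:**
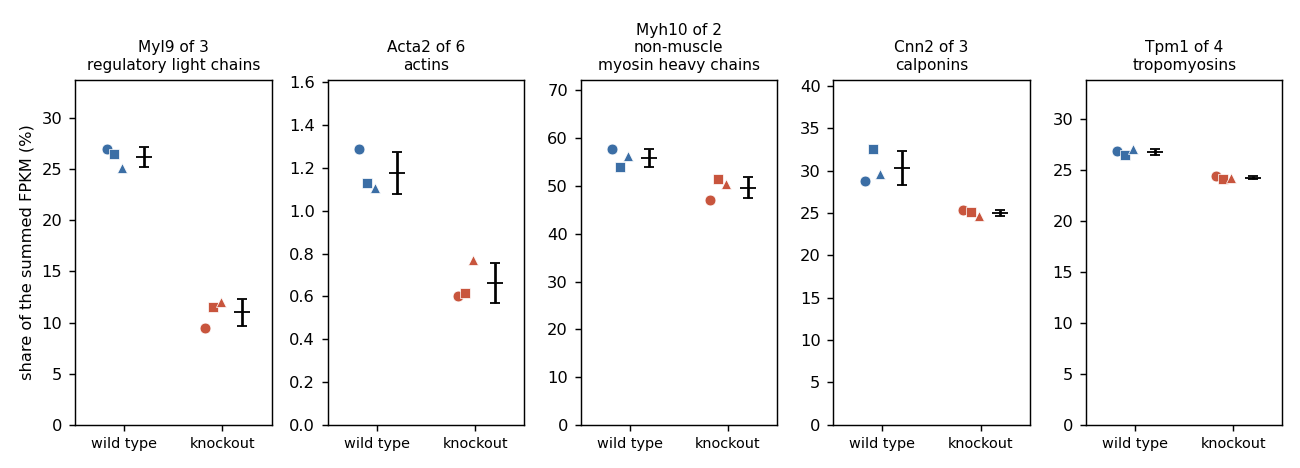
Share (%) of 1 gene in the summed FPKM of its family in each library (blue, wild type; red, knockout), with mean and SD (black) over 3 libraries. The share is lower in all 3 knockout libraries in each of the 5 families, most of all for Myl9, from 26.2% to 11.0% on average. Each gene was chosen after the values were seen and was itself lower without overlap.

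Other genes of the pathway were taken from lists of SRF cofactors, contractile regulators and adhesion or Z-disc proteins. By limma 0.604% of all genes tested were called lower and 0.13% higher. At an unadjusted p under 0.05 the shares were 6.94% lower and 9.14% higher. The counts in these lists are to be read against these shares. Of 14 tested SRF cofactors and regulators 1 was called lower and 0 higher by limma, with 2 higher at an unadjusted p under 0.05. The called gene was Fhl2, encoding a LIM cofactor of SRF, at 43.1, 38.5 and 38.7 FPKM in wild-type libraries and 26.3, 30.4 and 28.0 FPKM in knockout libraries (log2 -0.49, SE 0.07, adjusted p = 0.0325). The groups did not overlap, but no fit that leaves out 1 library called it (adjusted p between 0.0537 and 0.136), and it was called in 4 of 13 alternatives. Hdac5, encoding a class II histone deacetylase, was not called (log2 0.44, adjusted p = 0.151) but was called higher without wild-type library 3 (log2 0.56, adjusted p = 0.0378). Mrtfa (log2 0.17) and Mrtfb (log2 0.03), the broadly expressed SRF coactivators, were not called.

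Of 24 tested contractile regulators 0 were called by limma, and 3 were lower and 3 higher at an unadjusted p below 0.05. Those with the smallest p were Prkg1, the cGMP-dependent kinase that relaxes smooth muscle (4.25 ± 0.277 against 2.79 ± 0.0787 FPKM, log2 -0.47, adjusted p = 0.0636), the small GTPase gene Rhob (log2 0.42, adjusted p = 0.19) and Agtr1a, encoding an angiotensin receptor (log2 0.36, adjusted p = 0.211). Of 44 adhesion and Z-disc genes 1 was called lower and 0 higher by limma, with 9 lower and 5 higher at an unadjusted p under 0.05. It was Pdlim2, a relative of Pdlim3 and Pdlim7 that binds actinin. Pdlim2 measured 15.9, 13.6 and 11.3 FPKM against 5.65, 3.79 and 5.89 FPKM, so that the mean of the knockout libraries was 37.5% of wild type (log2 -1.26, SE 0.17, adjusted p = 0.0314). It was called again without knockout library 2 or wild-type library 3 but not without any other 1 library (adjusted p between 0.0658 and 0.14). The median log2 change of the 3 lists was 0.01, -0.08 and -0.05.

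Markers of cells that could carry contractile transcripts differed in part between the groups. Of all 16899 genes tested 8517 lay below 0 and 8382 above, and 0.604% were called lower by limma. Of 15 tested vascular mural genes 7 lay below 0 and 8 above, with 1 called lower by limma (Akr1b7). At an unadjusted p under 0.05, 6 were lower and 3 higher, against 6.94% and 9.14% of all genes tested. Rgs5 (37.6 ± 2.85 against 28.2 ± 1.96 FPKM, log2 -0.40, limma adjusted p = 0.0723) and Mcam (log2 -0.22, limma adjusted p = 0.164) were not called. The sum of all 17 listed mural genes, Des among them, lay between 253 and 270.1 FPKM in wild-type and between 196 and 209.8 FPKM in knockout libraries. Ren1, the renin gene of modified smooth muscle cells, made up most of this gap, at 65.8, 49.3 and 32.2 FPKM in wild-type libraries and 12.7, 10.5 and 8.60 FPKM in knockout libraries. Its groups did not overlap, and it was not called (log2 -2.07, SE 0.30, adjusted p = 0.0886), but it was without wild-type library 3 (log2 -2.33, adjusted p = 0.0218), with no robust moderation (adjusted p = 0.0367) and with the replicate block (adjusted p = 0.015). Tbx2, a transcription factor gene, was not called (log2 0.49, adjusted p = 0.0555), but was called higher without wild-type library 3 (adjusted p = 0.0335), with a pseudocount of 0.1 (0.0498) and with a minimum mean of 1 FPKM (0.0479). Of 8 tested genes of the ureteric mesenchyme, 6 lay above 0. The sums of all 10 listed genes overlapped, at 87.0 to 96.1 against 91.7 to 105 FPKM. Ptch1 was the largest part of these sums, at 40.3 to 53.3 FPKM. Tbx18 measured 3.45, 3.76 and 4.95 FPKM in wild-type libraries and 3.84, 3.54 and 4.46 FPKM in knockout libraries (log2 -0.02, limma adjusted p = 0.947). Of 12 stromal genes 11 lay below 0 and 2 were called lower (Ntn1 and Sfrp1; Sfrp1 not without knockout library 2 or 3, adjusted p = 0.0713 and 0.0626), with sums of 717 to 773 FPKM against 656 to 684 FPKM. Of 15 nephron and ureteric bud genes 14 lay above 0, with sums of 275 to 281 against 311 to 331 FPKM. Of 9 endothelial genes 6 lay above 0, and their sums overlapped. The part of these cell types in the levels of the contractile genes was not tested.

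Sequence shared between genes and overlapping gene models limit a few of the values. Of the stretches of 31 bases in a gene's GENCODE transcripts, 23.5% also occur in another gene's transcripts for Actb, 16.0% for Tpm4 and 11.4% for Myl6. For the other 29 genes the share was at most 1.39%, which was that of Acta2, and it was 0.412% for Myl9 and 0 for Tagln. Exons on the opposite strand overlap Tagln, Smtn, Des, Mylk, Tpm4, Vcl, Actn1, Zyx and Tln1, and the labels do not say whether the libraries kept strand. Pdlim7 holds a microRNA gene on its own strand.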

How the data were processed

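Per the submitters' processing notes, the tools were bcl2fastq 2.17.1.14 and Salmon, and the build was GRCm38 (mm10). These notes name no Salmon version, annotation release or way of summing to genes. The authors deposited a table of FPKM for 24749 genes in 6 libraries, and all columns were used. A count model cannot be applied to FPKM. The 16899 genes whose mean reached 0.5 FPKM were transformed as log2(FPKM + 1) and fitted with limma 3.58.1 in R 4.3.3, genotype as the only term, with trend and robust moderation and Benjamini-Hochberg adjustment over all genes tested. Genes were called at an adjusted p under 0.05. The log2 scale understates changes of low genes. With 3 against 3 libraries an exact permutation test cannot go below 0.1, so none is given. A percentage of wild type divides the mean FPKM of the groups.

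Depth was approximated from the lowest step of values on genes with 1 transcript of at least 2000 bases, where 1 fragment on 2 kb was worth 0.0323 to 0.0393 FPKM. No pair among the 15 pairs of libraries was identical. On 10 simulated tables of the 16899 genes the fit recovered 44.2%, 83.5% and 93.2% of genes changed by a log2 of 0.5, 1 and 2, and 5.6% of its calls were false. Changes of a log2 of 2 were simulated as decreases only. The noise was drawn independently for each gene and library, so no simulated library stood apart as wild-type library 3 did. These shares therefore need not hold for the real calls. The 32 genes, their classes and the other lists were chosen with earlier results of these data known. Values in every library are given for called genes, muscle-restricted genes and genes with an unadjusted p under 0.05; most others are given by mean and SD or range. Of the other lists, called members or the 3 with the smallest p were to be named, and of the marker lists the 3 of highest mean level, of which only some are printed. Akr1b7, Ntn1, Sfrp1, Tbx2, Hdac5, Mrtfa, Mrtfb, Foxd1 and Tbx18 fall outside this rule and were chosen after their values were seen. The paralog families, the gene followed in each and the motifs were chosen after the values were seen. The alternatives tried were other pseudocounts, filters, scalings and moderation, a replicate block, and leaving out each library.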

Additional observations from a re-analysis of the deposited data

How the results depend on the processing

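Every alternative tried kept 20 of the 30 tested genes below 0 and 7 above 0. The direction of the other 3 turned only when 1 library was left out: Smtn ranged from -0.13 to 0.046, Des from -0.082 to 0.061 and Myh9 from -0.027 to 0.088 in log2 change over these fits. Leaving out 1 library gave between 52 and 147 called genes in all, against 124, and between 1 and 2 called lower among the 30, against 6. The median log2 change of the muscle-restricted class was -0.48 with a pseudocount of 0.1, against -0.30, a construction that weights low genes more. It was -0.216 when every gene was kept whatever its level, which adds Lmod1 and Ldb3, and -0.266 without knockout library 2. The muscle-enriched median was -0.260 and -0.270 in these fits, so the order of these classes turned in both. No alternative called any of the 30 genes higher. With the replicate block 32 genes were called in all and 1 of the 30 (Cald1). The labels do not say whether same-numbered libraries share more than a number. The correlation of their deviations from the group mean was 0.0238, -0.0422 and 0.0504 for numbers 1, 2 and 3. It ran from -0.0926 to 0.081 between libraries of different number. These correlations cannot decide whether the libraries were paired. Scaling to equal sums shifted the median log2 change of all genes to -0.02. Depth limits Lmod1 and Ldb3 most.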
